A study of Homo sapiens with 12 samples.

Results

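DEAD box and DEAH box proteins are large families of RNA helicases, enzymes that use ATP to open RNA duplexes or to strip proteins from RNA. The genes described here are those whose symbol is DDX or DHX followed by a number and at most a letter A, B, X or L. DHX9, DDX58 and DHX58 were left out of the list. The rule took 51 of the 56609 gene symbols in the files, 37 DDX and 14 DHX genes. It used the symbol alone, not a measured value, but it was chosen with earlier results of these data known.

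RNA was sequenced from 2 cell lines of Ewing sarcoma, a cancer of the young that depends on the fusion transcription factor EWS-FLI1. The compound YK-4-279 was designed to keep EWS-FLI1 away from the helicase that DHX9 encodes, RNA helicase A. The question here is how the relatives of that helicase differ between resistant cells and their parents. The groups are A4573-R, the resistant derivative of A4573 with YK-4-279 at what the labels write as 650 uM, A4573 parental in the solvent DMSO, TC-71-R, that of TC-71, with the compound at 400 uM, and TC-71 parental in DMSO, with 3 libraries each. The unit of these doses is in doubt and is printed as the labels give it. Each resistant group is a derivative of 1 line, and the compound was present in the resistant libraries alone, so resistance and exposure cannot be told apart. Nothing in the labels ties the 3 libraries of a group to separate cultures, so the p-values measure only the spread between these libraries, which may be technical.

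DEAD box proteins bind RNA with little regard to its sequence, and partners with a MIF4G fold or similar cofactors switch them on and off at their place of work. DEAH box proteins move along RNA, and many are driven by partners with a G-patch. Members of both families take apart or remodel RNA and protein at almost every step of gene expression: they drive the steps of splicing, free small nucleolar RNAs from the ribosomal RNA precursor, load messenger RNA onto export factors and ribosomes, and hand it to decay. In Ewing sarcoma cells RNA helicase A is known as a partner of EWS-FLI1 in transcription.

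The stretch of DNA before the start of transcription is shown for 5 members on which the results turn: DDX21, which was lower in both derivatives, DDX46 and DDX56, which were lower in A4573-R and higher in TC-71-R, and the interferon-inducible DDX60 and DDX60L, which were higher in TC-71-R. Each is the 250 bases before the first start that RefSeq lists on GRCh38.p14, read 5′ to 3′ on the strand of the gene. They lie at chr10:68955920-68956169 (plus strand, DDX21), chr5:134758529-134758778 (plus, DDX46), chr7:44573909-44574158 (minus, DDX56), chr4:168318753-168319002 (minus, DDX60) and chr4:168480493-168480742 (minus, DDX60L). Capitals mark matches, on either strand, to the ETS site CCGGAAG, the GC box GGGCGG or the core of an interferon response element, which is GAAA, any 2 bases and GAAA.
DDX21: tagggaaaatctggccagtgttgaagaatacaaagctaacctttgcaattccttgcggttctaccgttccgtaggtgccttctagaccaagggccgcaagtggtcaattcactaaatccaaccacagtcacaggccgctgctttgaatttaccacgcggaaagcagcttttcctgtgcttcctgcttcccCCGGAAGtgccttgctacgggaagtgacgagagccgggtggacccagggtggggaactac
DDX46: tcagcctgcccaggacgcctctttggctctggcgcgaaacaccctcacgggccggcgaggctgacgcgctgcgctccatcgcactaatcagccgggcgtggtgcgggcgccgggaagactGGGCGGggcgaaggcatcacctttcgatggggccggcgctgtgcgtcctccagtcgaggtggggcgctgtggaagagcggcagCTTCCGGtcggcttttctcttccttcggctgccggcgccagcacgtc
DDX56: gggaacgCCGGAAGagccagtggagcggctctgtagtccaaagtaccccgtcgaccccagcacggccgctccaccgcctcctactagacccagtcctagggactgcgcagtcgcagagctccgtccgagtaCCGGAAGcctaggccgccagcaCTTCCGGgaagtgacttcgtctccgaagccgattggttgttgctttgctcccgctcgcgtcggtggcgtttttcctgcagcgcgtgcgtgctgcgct
DDX60: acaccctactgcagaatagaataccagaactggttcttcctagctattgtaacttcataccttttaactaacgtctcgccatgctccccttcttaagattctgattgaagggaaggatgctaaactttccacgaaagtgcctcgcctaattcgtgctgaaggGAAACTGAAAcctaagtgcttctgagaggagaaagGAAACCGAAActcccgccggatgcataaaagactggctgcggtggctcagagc
DDX60L: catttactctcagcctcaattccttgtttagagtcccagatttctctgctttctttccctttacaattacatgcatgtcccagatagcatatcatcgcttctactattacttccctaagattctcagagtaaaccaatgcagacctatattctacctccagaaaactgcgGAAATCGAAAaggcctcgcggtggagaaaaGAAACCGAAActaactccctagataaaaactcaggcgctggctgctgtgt

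The DDX21 stretch holds 1 ETS site, which begins 60 bases before the start. The DDX46 stretch holds 1 ETS site at 47 bases and 1 GC box at 130 bases, and the DDX56 stretch holds 3 ETS sites, at 97, 119 and 243 bases. DDX60 and DDX60L hold no ETS site there and 2 interferon elements each, at 53 and 88 bases before the start of DDX60 and at 50 and 80 bases before that of DDX60L. The stretches also differ in base composition, with 53.2%, 69.6% and 64.8% G and C in DDX21, DDX46 and DDX56, against 46.8% in DDX60 and 42.8% in DDX60L. A match says only that these letters are in the stretch. The RefSeq starts of DDX21, DDX46 and DDX60 lie 42, 8 and 55 bases inside the gene as GENCODE draws it, that of DDX56 1143 bases inside and that of DDX60L 57294 bases inside, so the stretches of DDX56 and DDX60L lie within the annotated gene.

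RefSeq listed a promoter for 47 of the 51 members. For 35 of the 47 a run of bases just after the start was found unbroken in a GENCODE transcript of the same gene. DDX21 is not among the 35, and the other 4 printed genes are. The ETS letters CCGGAAG, searched on both strands, were in 15 of the 47 (31.9%), against 8.82% of all 27305 promoters of this length and 11.8% of the 15842 of coding genes. The E-box CACGTG was in 7 (14.9%, against 6.49% of all and 7.84% of coding genes) and the doubled repeat GGAAGGAA in 2 (4.26%, against 2.99% and 3.09%). The GC box was in 25 (53.2%), above the 42.3% of all promoters and below the 56% of coding genes. The interferon core was in 3 (6.38%, against 3.07% and 2.72%), which are DDX60, DDX60L and DHX15. None of these motifs contains another, though GGAAGGAA and CCGGAAG can share bases. Of the tested members with the ETS letters, 13 of 15 were lower in A4573-R, as were 18 of the 29 tested members with a listed promoter without them. Over all tested genes 34.1% were lower there, and the shares among all genes with and without these letters were not counted. These are counts without a test, and a link between the letters and the change was not tested.

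Of the 51 members, 48 reached 1 CPM (counts per 1000000 reads) in at least 3 of the 12 libraries and were tested, 34 DDX and 14 DHX genes, among 14335 genes in all. The 3 below this level are germline genes. DDX43 had 0 reads in every library, which allows up to 0.048 to 0.068 reads per 1000000 reads on named genes (3 reads, counting error only). DDX4, the germ cell helicase, had 0 to 4 reads per library. DDX53, a cancer and testis antigen, had 1, 4 and 1 reads in A4573-R and 0 reads in the other 9 libraries. Because a gene low everywhere is left out, the 48 are not all members.

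The libraries held 44.0 to 62.1 M reads on named genes (M, 1000000), and replicates differed by more than counting noise. Of 10 markers of Ewing sarcoma, 8 or 9 averaged at least 1 CPM in each group. Their summed levels were 702 to 713 CPM in A4573-R, 618 to 643 in A4573 parental, 897 to 917 in TC-71-R and 736 to 745 in TC-71 parental. The sums hide opposite moves. Mean CCK was 207 CPM in A4573-R against 68 CPM in A4573 parental, and NKX2-2, PAX7 and BCL11B were also higher in A4573-R. STEAP1, NR0B1, LIPI, FLI1 and EWSR1 had lower means in A4573-R than in its parent. CCK was near absent in TC-71-R (0.308 CPM) and TC-71 parental (0.28 CPM). CD99, a defining surface marker, was at or near 0 in every group, at most 0.0145 CPM. These are counted reads, and whether CD99 was silent or its reads were lost in counting was not tested. The 6 markers of blood, vessel, epithelium and liver summed to 2.24 to 2.70 CPM, 1.02 to 1.33, 1.62 to 1.67 and 2.63 to 2.81 in the same order. CD3E and PECAM1 were at or near 0. Means of at least 1 CPM were those of EPCAM in A4573-R (1.54 CPM) and of EPCAM (1.4 CPM) and PTPRC (1.07 CPM) in TC-71 parental. Mitochondrially encoded genes took 2.41% to 2.77% of reads in A4573-R, 2.61% to 2.95% in A4573 parental, 5.08% to 7.78% in TC-71-R and 6.43% to 7.58% in TC-71 parental. In bulk RNA, fewer cells of a type and less RNA per cell cannot be told apart.

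The second library of A4573-R was the lowest of its group for 36 of the 48 members. The members together summed to 3783, 3548 and 3881 CPM in A4573-R. All named genes together also summed lowest in the second library, to 636110 CPM, against 652138 and 658712 CPM in libraries 1 and 3. How many of all tested genes were lowest there was not counted. Without the second library, 33 members were lower and 4 higher in A4573-R, against 35 and 4 with it. Of all tested genes 33.1% were lower and 37.4% higher without it, against 34.1% and 38.3% with it. In TC-71-R libraries 2 and 3 were the most unlike replicates, at a chi-square per degree of freedom of 44.4 over genes. Without library 2, 15 members were higher and 20 lower there, against 16 and 22 with it. Of all tested genes 37.9% were higher and 39.6% lower without it, against 38.8% and 39.6% with it. The part of these libraries in single results is given beside them where it changes a call.

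In A4573-R most helicase genes were lower than in the parent. Of the 48 tested members, 35 (72.9%) were lower and 4 were higher at an adjusted p under 0.05, and 9 did not pass. Over all tested genes, 34.1% were lower and 38.3% higher, 72.5% in all, so a call in itself is common in these data. The share of members lower is above that background and the share higher is below it. The median log2 fold change was -0.23 over the members and 0.02 over all genes. Summed over the members, A4573-R had 3783, 3548 and 3881 CPM, against 4603, 4681 and 4725 CPM in A4573 parental, without overlap. The changes were small on the log2(CPM + 1) scale: at a fold of 1.5 or more, 3 members were lower (8.19% of all genes were) and 0 higher (10.4%). Over all genes 18.6% passed in either direction. This scale understates the changes of low genes, such as DDX60 (mean 1.43 CPM in A4573-R against 0.894 CPM in A4573 parental) and DDX47 (1.40 CPM against 2.25 CPM).

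In TC-71-R the members went both ways. Of the 48, 16 were higher and 22 lower, and 10 did not pass, beside 38.8% higher and 39.6% lower over all genes, 78.5% in all. The shares of the members, 33.3% and 45.8%, are near that background. At 1.5-fold on the log2(CPM + 1) scale, 3 were higher (12.9% of all genes) and 4 lower (14.1%). DDX25, counted among the 16 and the 3 higher, would not have been tested without the TC-71-R libraries. The median was -0.05 over the members and 0.00 over all genes. The members together summed to 3776, 3846 and 3785 CPM in TC-71-R, against 4044, 4053 and 4039 CPM in TC-71 parental, and the groups did not overlap.

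**Figure D1:**
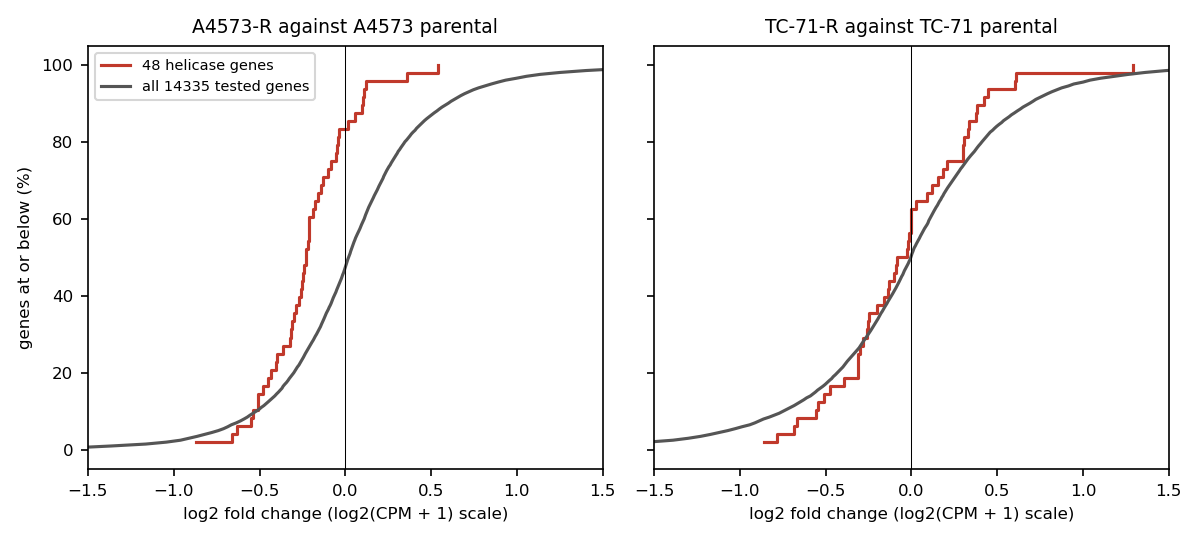
Share of genes (vertical, percent) at or below a log2 fold change (horizontal, log2(CPM + 1) scale) for the 48 tested helicase genes and for all 14335 tested genes, in A4573-R against A4573 parental (left) and in TC-71-R against TC-71 parental (right). On the left the helicase line runs to the left of that of all genes over most of the range (medians -0.23 and 0.02), and on the right the lines lie close (medians -0.05 and 0.00).

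The difference between both changes was tested as TC-71-R change minus A4573-R change. It was positive for 26 members and negative for 8, and 14 did not pass, beside 37.9% positive and 40.2% negative over all genes, 78.1% in all. The median difference was 0.20 over the members and -0.01 over all genes. At a size of 1.5-fold or more, 6 members were positive (16.9% of all genes) and 0 negative (19.7%).

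Sorted by both lines together, 18 members were lower in both derivatives, 37.5% of the 48, against 14.8% of all tested genes. A further 10 were lower in A4573-R and higher in TC-71-R, 20.8% against 11.9% of all genes. DDX60 alone was higher in both, where 16.4% of all genes were. DDX19B and DHX35 were higher in A4573-R and lower in TC-71-R (14.3% of all genes). DDX59 was higher in A4573-R without a call in TC-71-R (7.65% of all), and 7 members were lower in A4573-R without one (14.6%, against 7.34%). In TC-71-R alone 5 members passed as higher and 2 as lower, where each class holds 10.5% of all genes, and DDX39B and DHX32 passed in neither line (6.55% of all). Past a fold of 1.3 in both lines, 4 members were lower in both (DDX21, DDX47, DDX51 and DDX55), 8.33% against 4.23% of all genes. Across the 48 members the changes in both lines had a Pearson correlation of 0.29, and across the 14335 tested genes 0.04. Each point is a gene measured in the same 12 libraries, so this is a description.

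**Figure D2:**
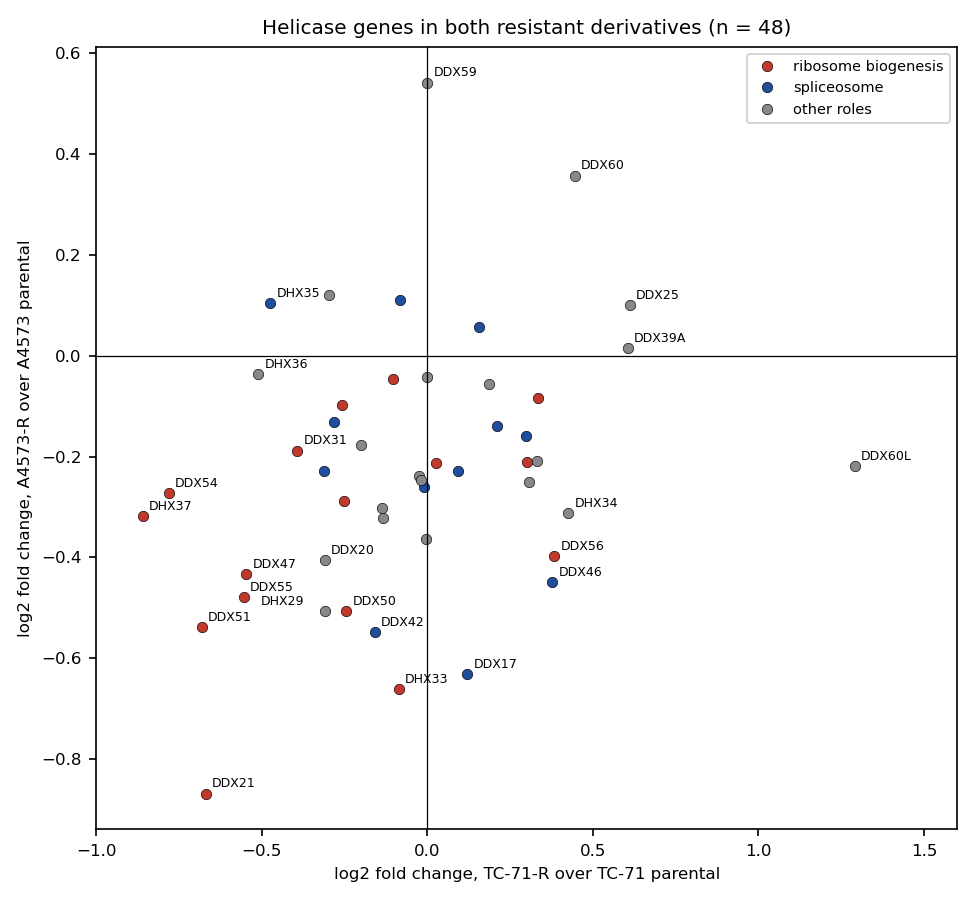
Log2 fold change of each of the 48 tested helicase genes in TC-71-R (horizontal) and in A4573-R (vertical), each against its parent, with members of ribosome biogenesis in red, of the spliceosome in blue and others in grey. The lower left holds DDX21, DDX51, DDX55, DHX37 and DDX54, the lower right DDX46, DDX56, DHX34 and DDX60L, and DDX60 stands in the upper right.

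Of the 16 tested helicases of ribosome biogenesis, 14 were lower and 0 higher in A4573-R, with a median log2 fold change of -0.30, beside 34.1% lower and 38.3% higher over all genes. Of the other 32 members 21 were lower and 4 higher there, with a median of -0.21. In TC-71-R 11 were lower, 3 higher (DDX24, DDX52 and DDX56) and 2 did not pass, with a median of -0.26, beside 39.6% lower and 38.8% higher over all genes. Of the other 32 members 11 were lower and 13 higher in TC-71-R, with a median of 0.00. These counts carry no test of the group, which was chosen with earlier results of these data known. The difference of the changes was positive for 7, negative for 4 and not past the threshold for 5, beside 37.9% positive and 40.2% negative over all genes.

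DDX21, a nucleolar helicase of ribosomal RNA transcription and processing, whose promoter is printed above, had 190.8, 173.9 and 190.0 CPM in A4573-R against 327.6, 338.2 and 348.6 CPM in A4573 parental. It had 198.3, 193.4 and 195.5 CPM in TC-71-R against 314.1, 310.5 and 310.8 CPM in TC-71 parental. Both derivatives lay far below their parents, with no overlap, and it was the lowest log2 fold change of the members in A4573-R. The mean was 184.9 ± 9.56 CPM in A4573-R and 338.1 ± 10.5 CPM in A4573 parental (SD, n = 3 each), and 195.7 ± 2.49 CPM in TC-71-R and 311.8 ± 1.99 CPM in TC-71 parental. The log2 fold change was -0.87 (SE 0.04, adjusted p 2.37e-11, limma) in A4573-R and -0.67 (SE 0.04, adjusted p 2.50e-10) in TC-71-R. DDX50, its neighbour on chromosome 10 and closest relative, had 47.7, 43.4 and 46.9 CPM in A4573-R against 65.0, 66.5 and 65.6 CPM in A4573 parental, and 61.2, 62.8 and 60.0 CPM in TC-71-R against 71.2, 74.2 and 73.2 CPM in TC-71 parental. It was also lower in both, by a log2 fold change of -0.51 and -0.24. DDX21 made up 80.1% of the sum of the pair in A4573-R against 83.7% in A4573 parental, and 76.1% in TC-71-R against 81.1% in TC-71 parental.

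DDX51 and DDX55 act on ribosomal RNA of the large subunit. DDX51 had 32.3, 31.9 and 33.7 CPM in A4573-R against 48.0, 48.6 and 47.0 CPM in A4573 parental, and 31.1, 39.3 and 31.2 CPM in TC-71-R against 55.3, 55.3 and 53.2 CPM in TC-71 parental. Its second TC-71-R library was the highest of its group and still under every parental value, and its log2 fold changes were -0.54 and -0.68. DDX55 had 26.1, 26.2 and 29.4 CPM in A4573-R against 38.3, 39.1 and 37.3 CPM in A4573 parental, and 21.1, 24.8 and 21.4 CPM in TC-71-R against 33.3, 33.7 and 33.0 CPM in TC-71 parental. It was lower by a log2 fold change of -0.48 and -0.56, without overlap, and for neither gene did the difference between the lines pass (adjusted p 0.17 for DDX51 and 0.39 for DDX55, limma).

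DHX37, which releases the U3 small nucleolar RNA from the small-subunit precursor, fell further in TC-71-R. It had 68.8, 66.5 and 75.3 CPM in A4573-R against 86.0, 87.2 and 89.8 CPM in A4573 parental, and 42.1, 44.1 and 41.7 CPM in TC-71-R against 78.7, 78.3 and 77.6 CPM in TC-71 parental. The log2 fold changes were -0.32 (SE 0.04) and -0.86 (SE 0.04), and their difference was -0.54 (adjusted p 5.59e-07, limma). DDX54, a nucleolar helicase also known to bind nuclear receptors, followed the same order. It had 81.9, 83.7 and 90.1 CPM in A4573-R against 100.5, 102.8 and 105.9 CPM in A4573 parental, and 25.9, 27.3 and 25.6 CPM in TC-71-R against 45.9, 45.3 and 46.2 CPM in TC-71 parental. Its log2 fold changes were -0.27 and -0.78, with a difference of -0.51 (adjusted p 6.20e-07).

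DHX33, a helicase of ribosomal RNA transcription, was lower in A4573-R. It had 81.6, 73.7 and 85.2 CPM there against 121.3, 128.0 and 132.2 CPM in A4573 parental, a log2 fold change of -0.66 (SE 0.05, adjusted p 4.33e-09, limma). In TC-71-R it had 73.4, 73.8 and 75.6 CPM against 78.0, 79.9 and 79.1 CPM in TC-71 parental, a log2 fold change of -0.09 that did not pass (adjusted p 0.095), although no library overlapped. The difference between the lines was 0.57 (adjusted p 9.48e-07).

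DDX56, a nucleolar helicase of the large subunit, went opposite ways. It had 64.4, 64.2 and 69.2 CPM in A4573-R against 86.3, 87.9 and 87.2 CPM in A4573 parental, and 87.9, 89.7 and 88.0 CPM in TC-71-R against 66.5, 68.3 and 68.1 CPM in TC-71 parental. The libraries did not overlap in either line. The log2 fold change was -0.40 (SE 0.03, adjusted p 3.58e-08, limma) in A4573-R and 0.38 (SE 0.03, adjusted p 3.71e-08) in TC-71-R, and their difference 0.78 (adjusted p 6.29e-10). It was the only member of the 48 past 1.3-fold in opposite directions. Over all genes, 2.83% were lower in A4573-R and higher in TC-71-R to that extent. DDX46 fell just short of this limit, at 0.732-fold in A4573-R and 1.299-fold in TC-71-R on the log2(CPM + 1) scale.

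The other ribosome helicases changed less or are at low counts. DDX27, DDX31 and DDX49 were lower in both lines, with log2 fold changes of -0.29, -0.19 and -0.10 in A4573-R and of -0.25, -0.39 and -0.26 in TC-71-R. DDX52 was at -0.21 in A4573-R and 0.30 in TC-71-R, DDX24 at -0.08 (not past the threshold) and 0.33, DDX18 at -0.21 and 0.03 (not past), and DDX10 at -0.05 (not past) and -0.10. DDX47 was lower in both, at -0.43 and -0.55, on levels of 1.40 CPM in A4573-R against 2.25 CPM in A4573 parental and 2.28 CPM in TC-71-R against 3.75 CPM in TC-71 parental, and 36.5% of its exon bases are shared with another annotated gene. The call of DDX49 in A4573-R is lost without library 1 or 2 of A4573 parental (-0.09 each) or library 1 of A4573-R (-0.08), and that of DDX10 in TC-71-R without library 2 of TC-71 parental (-0.09) or library 3 of TC-71-R (-0.08). The DDX49 call is also lost under quantile normalization (-0.08), and the DDX10 call under TMM and median-of-ratios scaling and with edgeR and DESeq2 (-0.07 each).

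**Figure D3:**
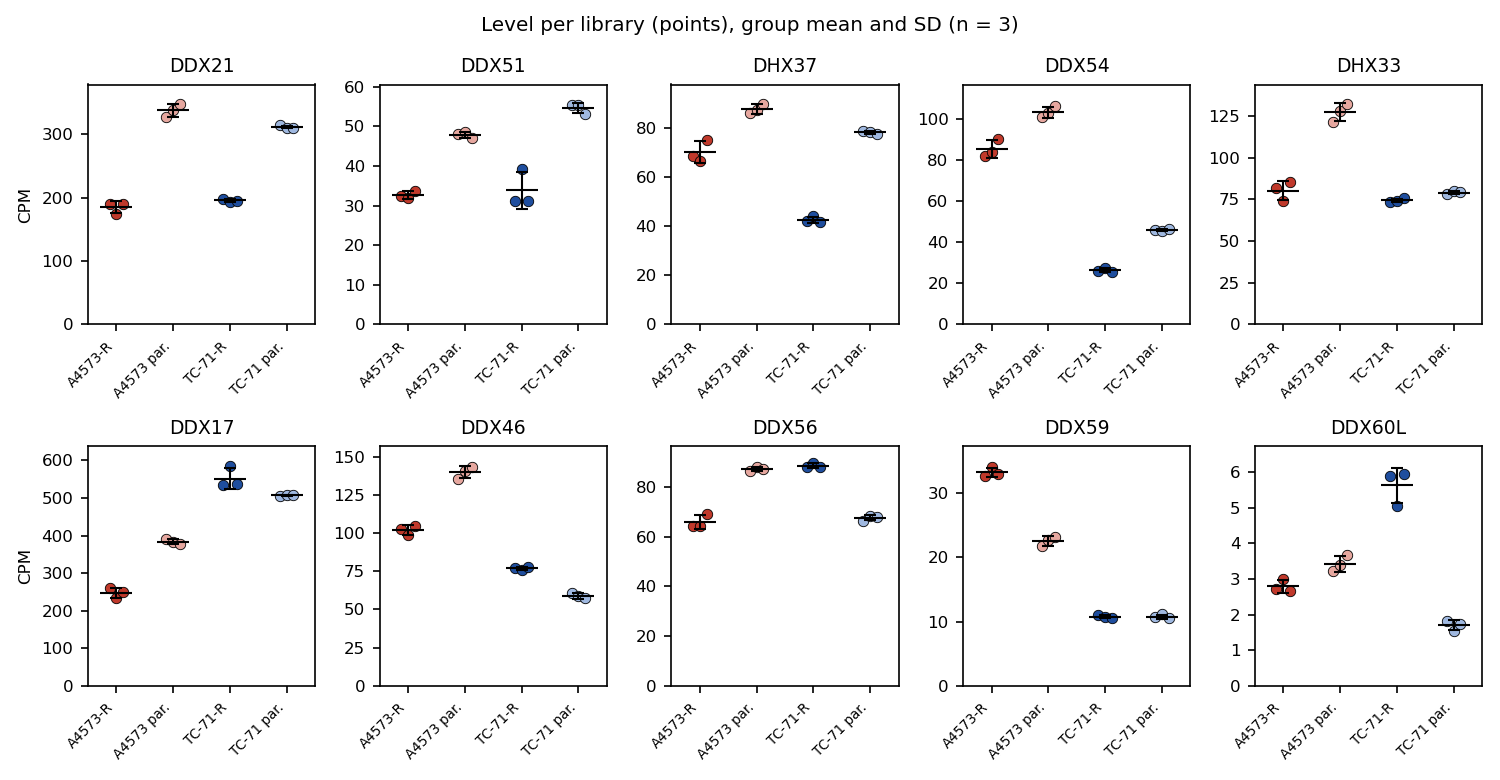
Level in CPM (vertical, from 0) of 10 helicase genes in each of the 12 libraries (points), with the mean and SD of 3 libraries, in A4573-R, A4573 parental, TC-71-R and TC-71 parental from left to right. DDX21, DDX51, DHX37 and DDX54 lie below the parent in both derivatives, DDX46 and DDX56 below it in A4573-R and above it in TC-71-R, and DDX59 above it in A4573-R alone.

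Among the 12 helicases of the spliceosome, 9 were lower, 1 higher (DHX35) and 2 not past the threshold in A4573-R, with a median log2 fold change of -0.19 (all genes: 34.1% lower, 38.3% higher). In TC-71-R 5 were higher, 4 lower and 3 not past, with a median of 0.04, near the shares over all genes (38.8% higher, 39.6% lower). The difference of the changes was positive for 7 and negative for 1, beside 37.9% positive and 40.2% negative over all genes.

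DDX46, which remodels the U2 particle at the branch site, had 102.9, 98.6 and 104.6 CPM in A4573-R against 135.5, 140.4 and 143.3 CPM in A4573 parental, and 77.2, 75.5 and 77.7 CPM in TC-71-R against 60.9, 58.5 and 57.3 CPM in TC-71 parental. It was lower in every A4573-R library and higher in every TC-71-R library than in any of the parent. The log2 fold changes were -0.45 (SE 0.04, adjusted p 1.60e-08, limma) and 0.38 (SE 0.04, adjusted p 8.50e-08), and the difference 0.83 (adjusted p 6.06e-10). DDX42, a helicase of the same branch-site step, had 106.9, 106.5 and 108.7 CPM in A4573-R against 153.3, 158.6 and 160.5 CPM in A4573 parental, and 119.6, 128.9 and 119.8 CPM in TC-71-R against 138.6, 135.2 and 137.7 CPM in TC-71 parental. Both derivatives lay below their parents without overlap, at -0.55 and -0.16, and the difference of 0.39 passed (adjusted p 2.71e-06).

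DDX5 and DDX17 are close relatives that act in splicing, in microRNA processing and as partners of transcription factors. DDX5 had 427.3, 404.7 and 451.4 CPM in A4573-R against 494.9, 498.6 and 509.5 CPM in A4573 parental, and 522.0, 518.2 and 528.6 CPM in TC-71-R against 641.3, 649.8 and 657.1 CPM in TC-71 parental. The gene was lower in both lines, at -0.23 and -0.31, and the difference did not pass (adjusted p 0.18, limma). DDX17 had 259.5, 233.9 and 249.7 CPM in A4573-R against 391.7, 383.9 and 376.8 CPM in A4573 parental, and 533.3, 584.6 and 536.2 CPM in TC-71-R against 504.9, 507.2 and 507.8 CPM in TC-71 parental. Its log2 fold change was -0.63 (SE 0.04, adjusted p 3.76e-09) in A4573-R and 0.12 (SE 0.04, adjusted p 0.019) in TC-71-R, a difference of 0.75 (adjusted p 2.19e-08). The TC-71-R rise of DDX17 is lost without its second library (0.08), with no filter, and per 1000000 reads on named genes (0.05), and turns to -0.06 under quantile normalization, while the fall in A4573-R kept its call under every alternative. DDX5 took 63.3% ± 1.08 of the sum of both in A4573-R and 56.6% ± 0.84 in A4573 parental, and 48.7% ± 1.48 in TC-71-R and 56.2% ± 0.23 in TC-71 parental (SD, n = 3 each), so the share moved opposite ways. No test was run on this share.

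DHX35 had 21.6, 22.6 and 22.5 CPM in A4573-R against 20.0, 21.3 and 20.6 CPM in A4573 parental, and 21.4, 22.3 and 21.0 CPM in TC-71-R against 30.4, 29.5 and 31.1 CPM in TC-71 parental. The fall in TC-71-R was the clearer, at -0.48 (SE 0.04, adjusted p 2.13e-08, limma), and the rise in A4573-R was 0.10 (adjusted p 0.026). The A4573-R call is lost under TMM scaling and with edgeR, and, at 0.08 to 0.10, without library 1 or 3 of A4573 parental or library 2 or 3 of A4573-R. DHX15, which takes spent spliceosomes apart, had 196.0, 177.7 and 209.0 CPM in A4573-R against 221.9, 230.1 and 229.5 CPM in A4573 parental, a log2 fold change of -0.23. It had 167.8, 161.8 and 165.6 CPM in TC-71-R against 154.4, 156.6 and 153.4 CPM in TC-71 parental, and its 0.09 there did not pass (adjusted p 0.079).

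Smaller changes or low levels marked the remaining splicing helicases. DDX23 of the U5 particle was lower in A4573-R at -0.26 and stood at -0.01 in TC-71-R, which did not pass. DDX41 was lower in A4573-R at -0.16 and higher in TC-71-R at 0.30, and DHX38, which acts at the second step of splicing, at -0.14 and 0.21. DHX16, which acts before the first step, was lower in both, at -0.13 and -0.28. DHX8, which frees the spliced RNA, stood at 0.06 (not past) and was higher in TC-71-R at 0.16. The A4573-R call of DHX16 is lost without library 2 of A4573-R (-0.06), without any 1 of the A4573 parental libraries (-0.11 to -0.14) and without library 2 or 3 of TC-71 parental, and also under quantile normalization, with no filter and when its own comparison is fitted alone. That of DHX38 is lost without library 2 of A4573-R or library 3 of A4573 parental (-0.12 and -0.13). DDX39B had 2.79, 2.54 and 2.33 CPM in A4573-R against 2.92, 1.61 and 2.47 CPM in A4573 parental, and 4.0, 4.42 and 2.90 CPM in TC-71-R against 3.73, 4.65 and 3.68 CPM in TC-71 parental. Its groups overlapped and neither change passed. Annotated exons of other genes, a read-through transcript among them, share 30.8% of its exon bases, and reads there cannot be told apart.

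Of 7 helicases of translation, decay and RNA granules, 5 were lower and 0 higher in A4573-R (median log2 fold change -0.31), where 34.1% of all genes were lower and 38.3% higher. In TC-71-R 4 were lower and 3 higher (median -0.13), where 39.6% of all genes were lower and 38.8% higher. DHX29, which opens structured leaders for the scanning ribosome, had 40.4, 38.1 and 42.0 CPM in A4573-R against 57.3, 55.8 and 59.2 CPM in A4573 parental, and 32.2, 31.9 and 33.2 CPM in TC-71-R against 40.9, 40.3 and 40.1 CPM in TC-71 parental. Neither line overlapped with its parent, and the gene was lower in both, at -0.51 and -0.31. DHX36, which unwinds G-quadruplexes, had 61.0, 57.0 and 59.9 CPM in A4573-R against 60.8, 61.7 and 59.8 CPM in A4573 parental, and 52.9, 50.1 and 53.8 CPM in TC-71-R against 70.3, 77.1 and 77.2 CPM in TC-71 parental. Its A4573 libraries overlapped (-0.04, adjusted p 0.46, limma), its TC-71 libraries did not (-0.51, adjusted p 2.08e-08), and the difference of -0.47 passed (adjusted p 2.94e-06). DHX34, a factor of nonsense-mediated decay, had 24.5, 22.2 and 26.3 CPM in A4573-R against 30.2, 30.0 and 31.0 CPM in A4573 parental, and 28.9, 35.9 and 27.9 CPM in TC-71-R against 22.8, 22.4 and 22.5 CPM in TC-71 parental. It was lower in A4573-R at -0.31 and higher in TC-71-R at 0.43, with no overlap in either line and a difference of 0.74 (adjusted p 1.23e-05).

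The other 4 of that group include abundant genes. DDX3X, a helicase of translation initiation, was lower in both at -0.32 and -0.13, the second call being lost without library 2 of TC-71-R (-0.09) or library 1 or 2 of TC-71 parental (-0.12 and -0.14), under TMM and median-of-ratios scaling, with edgeR and DESeq2 (-0.10 each) and with no filter. DDX20 of the SMN complex was lower in both at -0.40 and -0.31. DDX1, a subunit of the tRNA ligase complex, was lower in A4573-R at -0.21 and higher in TC-71-R at 0.33, and DDX6, which represses translation and promotes decapping, stood at -0.06 (not past) and was higher at 0.19 in TC-71-R.

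The 3 export helicases had no common direction. DDX39A, which loads messenger RNA onto export factors, had 67.1, 65.0 and 70.9 CPM in A4573-R against 66.9, 66.1 and 67.8 CPM in A4573 parental, and 87.5, 108.5 and 85.8 CPM in TC-71-R against 61.2, 60.9 and 61.0 CPM in TC-71 parental. It stood at 0.01 in A4573-R (adjusted p 0.85, limma) and was higher in TC-71-R at 0.61 (adjusted p 4.61e-07), most in the second library. DDX19A had 15.1, 14.8 and 15.4 CPM in A4573-R against 18.2, 17.2 and 18.8 CPM in A4573 parental, and 16.6, 16.0 and 16.7 CPM in TC-71-R against 17.1, 17.1 and 16.1 CPM in TC-71 parental. DDX19B had 8.36, 8.21 and 8.32 CPM in A4573-R against 7.37, 8.10 and 7.19 CPM in A4573 parental, and 11.1, 10.8 and 11.1 CPM in TC-71-R against 13.4, 14.2 and 13.7 CPM in TC-71 parental. These neighbours, both of the nuclear pore, moved unequally: DDX19A was lower in A4573-R at -0.24 and stood at -0.03 in TC-71-R (not past), and DDX19B was at 0.12 in A4573-R and lower in TC-71-R at -0.30. The A4573-R call of DDX19B is lost under 9 alternatives, among them without library 1 or 3 of either A4573 group (0.09 to 0.12), and 26.9% of the exon bases of DDX19A and 19.7% of those of DDX19B are shared with other annotated genes.

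Both mitochondrial helicases were lower in A4573-R, where 72.9% of the members and 34.1% of all tested genes were. DHX30, which helps assemble the mitochondrial ribosome, had 85.9, 84.0 and 92.9 CPM there against 113.3, 111.3 and 114.3 CPM in A4573 parental, and 140.9, 143.6 and 143.5 CPM in TC-71-R against 143.4, 142.3 and 143.9 CPM in TC-71 parental. Its change was -0.36 in A4573-R, without overlap, and -0.01 in TC-71-R, where the libraries overlapped, with a difference of 0.36 (adjusted p 9.51e-06, limma). DDX28, also of the mitochondrial ribosome, had 8.39, 8.95 and 9.82 CPM in A4573-R against 11.1, 11.8 and 11.3 CPM in A4573 parental, and 24.8, 24.5 and 25.5 CPM in TC-71-R against 26.5, 28.7 and 27.5 CPM in TC-71 parental. Both changes were falls, at -0.30 and -0.14, the second call being lost under TMM and median-of-ratios scaling (-0.11 each), with both count tests and without library 2 or 3 of TC-71 parental or 1 or 2 of TC-71-R (-0.11 to -0.14), and 22.5% of its exon bases overlap DUS2 on the other strand.

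DDX60 and DDX60L are neighbours on chromosome 4 known as interferon-inducible, and both carry the interferon letters in the stretches printed above. DDX60 had 1.58, 1.29 and 1.42 CPM in A4573-R against 0.917, 0.838 and 0.928 CPM in A4573 parental, and 5.08, 5.40 and 4.80 CPM in TC-71-R against 3.45, 3.53 and 3.45 CPM in TC-71 parental. It was higher in both without overlap, at 0.36 and 0.45, and the difference did not pass (adjusted p 0.32, limma). DDX60L had 2.73, 3.00 and 2.66 CPM in A4573-R against 3.22, 3.39 and 3.66 CPM in A4573 parental, and 5.88, 5.05 and 5.94 CPM in TC-71-R against 1.81, 1.55 and 1.75 CPM in TC-71 parental. It was lower in A4573-R at -0.22 and higher in TC-71-R at 1.29 (SE 0.07, adjusted p 6.51e-11), the highest log2 fold change of the 48 members in either line. The difference of 1.51 (adjusted p 8.06e-10) was also the largest. On the log2(CPM + 1) scale the changes of such low genes are understated.

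The last genes have roles of their own. DDX59, known for ciliary signalling, had 32.7, 34.0 and 32.9 CPM in A4573-R against 21.7, 22.7 and 23.2 CPM in A4573 parental, and 11.0, 10.7 and 10.6 CPM in TC-71-R against 10.7, 11.1 and 10.5 CPM in TC-71 parental. It was higher in A4573-R at 0.54 (SE 0.04, adjusted p 9.11e-09, limma), the highest there on the log2(CPM + 1) scale. It stood at 0.00 in TC-71-R (SE 0.04), with a difference of -0.54 (adjusted p 4.02e-07, limma). DDX11, a DNA helicase of sister chromatid cohesion, had 60.8, 57.5 and 59.7 CPM in A4573-R against 70.4, 71.3 and 70.3 CPM in A4573 parental, and 70.0, 74.6 and 67.1 CPM in TC-71-R against 58.3, 55.8 and 56.3 CPM in TC-71 parental. Its log2 fold change was -0.25 in A4573-R and 0.31 in TC-71-R, both past the threshold and without overlap. DDX25, a testis helicase near the detection filter, had 1.01, 0.787 and 0.840 CPM in A4573-R against 0.598, 0.768 and 0.904 CPM in A4573 parental, which overlapped, and 1.69, 1.69 and 1.58 CPM in TC-71-R against 0.799, 0.700 and 0.710 CPM in TC-71 parental, a rise of 0.61. DDX25 would not have been tested without the TC-71-R libraries, where it is high. The filter therefore favours a rise there and a positive difference between the lines.

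DHX57 and DHX32, little-studied relatives of DHX29 and DHX15, and DHX40 complete the list. DHX57 had 40.2, 38.5 and 39.4 CPM in A4573-R against 47.8, 45.9 and 46.9 CPM in A4573 parental, and 25.4, 25.6 and 24.7 CPM in TC-71-R against 25.9, 26.3 and 24.7 CPM in TC-71 parental. It was lower in A4573-R at -0.25 and stood at -0.02 in TC-71-R, which did not pass. DHX32 had 11.3, 10.5 and 11.1 CPM in A4573-R against 11.0, 11.3 and 11.7 CPM in A4573 parental, and 19.4, 18.0 and 19.1 CPM in TC-71-R against 18.5, 19.2 and 18.8 CPM in TC-71 parental, overlapping in both lines. DHX40 was lower in both, at -0.18 and -0.20.

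**Figure D4:**
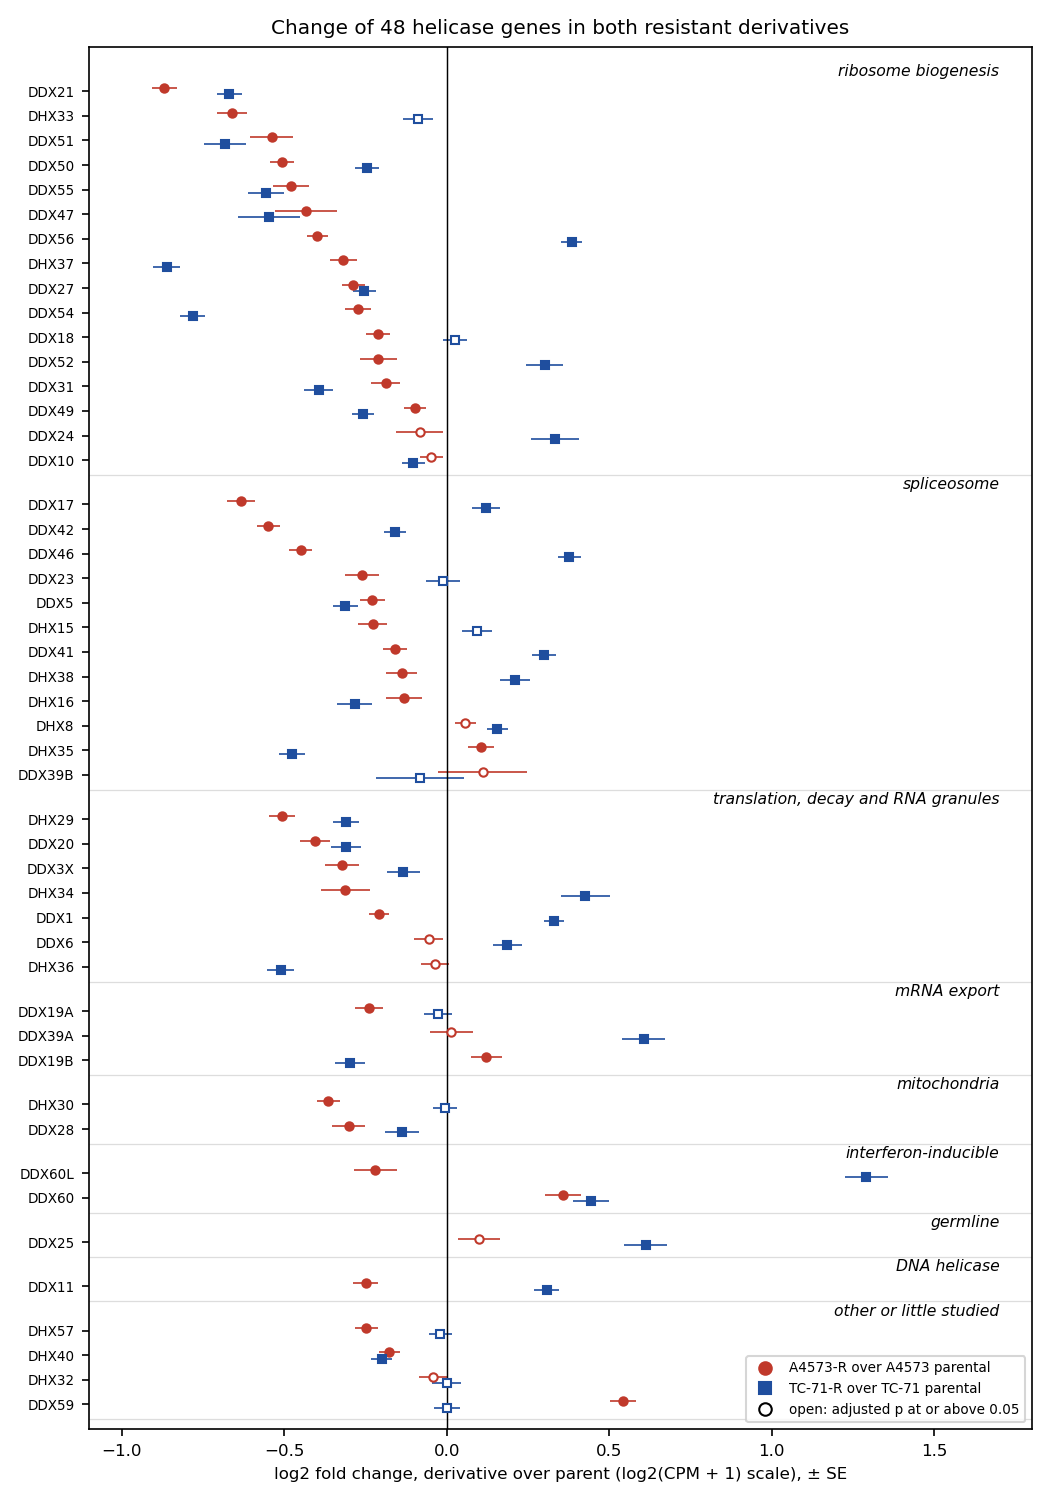
Log2 fold change (horizontal, log2(CPM + 1) scale) with its SE for the 48 tested helicase genes, grouped by role, in A4573-R over A4573 parental (red circles) and TC-71-R over TC-71 parental (blue squares), open where the adjusted p is 0.05 or more. Of the 16 genes of ribosome biogenesis, 14 are lower in A4573-R and 11 in TC-71-R, and DDX60L at 1.29 in TC-71-R is the point farthest to the right.

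Ranked by level per length (mean CPM per kilobase of exon), DDX5 was first in every group, at 57.9 in A4573-R, 67.8 in A4573 parental, 70.8 in TC-71-R and 87.9 in TC-71 parental. DDX21 was second in A4573-R at 36.8 and in A4573 parental at 67.4, where it was nearly level with DDX5. In TC-71-R it followed DDX17 (55.2) at 39.0, and in TC-71 parental it was second at 62.1. Across the 48 members the mean level and the change had a Pearson correlation of -0.46 in A4573-R and -0.22 in TC-71-R. The points share the 12 libraries, and this is a description.

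The parental lines differed before resistance, and this comparison shares its libraries with those above. In TC-71 parental, 16 members were higher and 28 lower than in A4573 parental, beside 45.9% higher and 44.1% lower over all genes, 89.9% in all. Under quantile normalization 20 were higher and 26 lower, beside 44.3% and 44.7% of all genes. At 1.5-fold 5 were higher (27% of all genes) and 13 lower (25.3%), where 52.3% of all genes passed in either direction. The lowest were DDX46 at -1.23, with a mean of 58.9 CPM in TC-71 parental against 139.7 CPM in A4573 parental, DDX54 at -1.15, DDX18 at -1.15, DDX52 at -1.11 and DDX23 at -1.09. The highest were DDX60 at 1.24 and DDX28 at 1.21, with 27.6 CPM in TC-71 parental against 11.4 CPM in A4573 parental. Of the ribosome helicases 13 of 16 were lower and 3 higher in TC-71 parental.

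Related proteins outside the rule were counted as well, in 4 lists of 62 tested genes. In A4573-R 14 were higher, 29 lower and 19 not past the threshold, where 38.3% of all genes were higher and 34.1% lower. In TC-71-R 23 were higher, 26 lower and 13 not past, close to the 38.8% and 39.6% of all genes, and these background shares hold for the single lists too. The medians were -0.12 and -0.05. DHX9 itself, the partner of EWS-FLI1, was lower in A4573-R (438.4 ± 32.2 CPM against 564.0 ± 3.07 CPM in A4573 parental, SD, n = 3 each) and higher in TC-71-R (290.8 ± 21.7 CPM against 207.9 ± 2.61 CPM in TC-71 parental), at -0.37 and 0.48.

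Among the 3 eIF4A proteins, the DEAD box subunits of cap binding and of the exon junction, EIF4A2 stood at 0.05 in A4573-R, which did not pass, and was higher in TC-71-R at 0.70, with 562.2 CPM against 345.1 CPM in TC-71 parental. In A4573-R 1 was lower and 2 did not pass, and in TC-71-R all 3 were higher. EIF4A1 was lower in A4573-R at -0.96 and higher in TC-71-R at 0.31, but 48.6% of its exon bases are shared with other annotated genes. Of 16 other RNA helicases, 3 were higher and 10 lower in A4573-R, and 6 were higher and 6 lower in TC-71-R. SUPV3L1, which degrades mitochondrial RNA, was lower in A4573-R at -0.81 and stood at 0.07 in TC-71-R, which did not pass, and YTHDC2, a reader of methylated RNA, was lower in both at -0.50 and -0.44. HELZ2, an interferon-inducible coactivator, was higher in both at 0.80 and 0.51. MOV10, which acts with AGO proteins, was lower in A4573-R at -0.29 and higher in TC-71-R at 1.22, with 99.8 CPM against 42.3 CPM in TC-71 parental. AQR, an intron-binding spliceosome helicase, was lower in both at -0.18 and -0.67, and ASCC3 was at 0.32 in A4573-R and -0.73 in TC-71-R.

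Of 21 G-patch proteins, 5 were higher and 6 lower in A4573-R, and 9 were higher and 7 lower in TC-71-R. GPATCH4, a nucleolar protein, was lower in both at -0.62 and -0.34, ZGPAT in both at -0.36 and -0.44, and GPKOW of the spliceosome was higher in both at 0.62 and 0.36. GPATCH1 was lower in both at -0.21 and -0.63. Of 22 MIF4G and other partners of DEAD box proteins, 6 were higher and 12 lower in A4573-R, and 5 were higher and 13 lower in TC-71-R. NOM1, the nucleolar partner of eIF4A3, was lower in both at -0.70 and -0.27, and PATL1 of decapping at -0.61 and -0.32. GEMIN4, the partner of DDX20, was lower in A4573-R at -0.64 and higher in TC-71-R at 0.44. LSM14A, a partner of DDX6, was higher in A4573-R at 0.11 and lower in TC-71-R at -1.27, with 20.2 CPM against 50.1 CPM in TC-71 parental. EDC3, which also binds DDX6, was lower in both at -0.60 and -0.56. PDCD4, an inhibitor of eIF4A, stood at -0.15 in A4573-R, which did not pass, and was higher in TC-71-R at 0.50.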

How the data were processed

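Total RNA of 12 libraries was sequenced as paired ends. Trimmomatic, STAR 2.4, HTSeq and edgeR on GRCh38 are named in the submitters' processing notes, and strand handling is not stated there. The deposited signal is a scaled value per gene, whose steps give whole reads for 100% of values (tolerance 0.001), so it is CPM on a scaled library size. The deposited columns sum to 0.94 to 1.12 M (M, 1000000). The 5 rows without a gene name hold 30.6% to 42.0% of reads and were left out. Rows of the same symbol were summed.

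The 14335 genes that reached 1 CPM in 3 or more of 12 libraries were fitted as log2(CPM + 1) with limma 3.58.1 (R 4.3.3, trend on mean expression), with 4 group means and no other covariate. Adjusted p-values are Benjamini-Hochberg over all tested genes, with a threshold of 0.05. Genes past it are called higher or lower, also at 1.5-fold. All fold limits, of 1.3 and of 1.5, are on the log2(CPM + 1) scale. edgeR 4.0.16 and DESeq2 1.42.0 on the recovered reads, other scalings, filters, a replicate block and leaving out each library were alternatives. Exact tests of 3 against 3 libraries cannot go below 0.1, so none was run.

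Members, roles and lists were chosen with earlier results of these data known. Library values are given for the 6 highest and 6 lowest changes per line at 5 CPM or more, the 4 largest differences, opposite changes past 1.3-fold, 8 related pairs and up to 2 genes per role, and for related lists up to 3 genes per direction, of which the text gives some. Exon lengths and overlaps come from GENCODE release 29 on GRCh38, and promoters from RefSeq. 1 marker of other cell types is not reported here and is left out of its list. The method was tested on simulated data.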

Additional observations from a re-analysis of the deposited data

Results flagged for a closer look

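The change differed between the lines, by the limma contrast of TC-71-R change minus A4573-R change, for 34 of the 48 tested helicase genes, beside 78.1% of all tested genes. Values below are that difference on the log2 scale, and a positive value means a higher change in TC-71-R.

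Among ribosome biogenesis helicases the difference was 0.20 for DDX21, 0.24 for DDX18, 0.26 for DDX50, 0.42 for DDX24, 0.51 for DDX52, 0.57 for DHX33 and 0.78 for DDX56. It was negative for DDX49 at -0.16, DDX31 at -0.21, DDX54 at -0.51 and DHX37 at -0.54. Among splicing helicases it was 0.25 for DDX23, 0.32 for DHX15, 0.35 for DHX38, 0.39 for DDX42, 0.46 for DDX41, 0.75 for DDX17 and 0.83 for DDX46, and -0.58 for DHX35.

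Among genes of translation and decay it was 0.19 for DDX3X, 0.20 for DHX29, 0.24 for DDX6, 0.54 for DDX1 and 0.74 for DHX34, and -0.47 for DHX36. Of the export genes, DDX19A gave 0.21, DDX39A 0.59 and DDX19B -0.42. The remaining genes were DDX60L at 1.51, DDX11 at 0.56, DDX25 at 0.51, DHX30 at 0.36, DHX57 at 0.23 and DDX59 at -0.54. The difference of DDX49 does not pass under TMM scaling (-0.10) or with edgeR (-0.10), and that of DDX3X does not pass when any 1 of 7 libraries is left out, at 0.13 to 0.18.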

How the results depend on the processing

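Across the 4 comparisons 155 member values passed the threshold, of which 140 kept direction and call under every alternative run. The other 15 lost their call or turned under at least 1, and 3 turned, all under quantile normalization. These were DDX17 in TC-71-R (-0.0596), and DDX21 (0.12) and DDX42 (0.11) in TC-71 parental against A4573 parental. The turned values of DDX21 and DDX42 pass the threshold in the other direction (adjusted p 0.002 and 0.0057, limma), and that of DDX17 does not pass. The cause was not tested. The count of members higher in A4573-R, 4 in the main analysis, was 2 under TMM scaling and with edgeR, where 36.8% and 37% of all tested genes were higher. It was 2 to 4 when single libraries were left out (35.9% to 39.3% of all). Leaving out single libraries gave 33 to 35 members lower in A4573-R, 15 to 17 higher and 19 to 23 lower in TC-71-R, and 25 to 28 positive and 8 to 11 negative differences.

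Deviations of libraries of the same number had correlations of -0.10 to 0.17, and those of different numbers -0.18 to 0.16. With 3 libraries per group such values cannot show whether libraries of the same number shared a batch. The main fit used no pairing. With a replicate block 4 members were higher and 35 lower in A4573-R, 16 and 22 in TC-71-R, 27 and 8 for the difference, and 16 and 28 in TC-71 parental. The shares of all tested genes with this block were 38.5% and 34.2%, 39% and 39.8%, 38.1% and 40.3%, and 45.9% and 44.2% in the same order. DDX4, DDX43 and DDX53 are too shallow to compare, and the members under 5 CPM rest on few reads.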
